A study of Fragaria hybrid cultivar with 9 samples.

Results

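The microRNAs miR159 and miR319 were followed through 3 stages of petal development in the pink-flowered strawberry cultivar 'Sijihong', a hybrid of Fragaria and Potentilla grown in open ground. Petals were taken at the young bud stage (PF_L), when coloration began (PF_Z) and in big buds (PF_D), and small RNA libraries were sequenced from 3 biological repetitions of each stage. The plants received no treatment, and which plants were pooled in a repetition was not stated. It is therefore not known whether libraries stand for independent plants. The p-values rest on the spread between libraries of the same stage, taken over all 9 libraries. A small RNA table holds no messenger RNA, so petal markers could not be checked.

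A sequence was taken as a member when its listed name contained miR159 or miR319 in either letter case and the number was followed by no further digit. These names stood on 45 of the 1876 lines of the table, 42 lines remained once full repeats were dropped, and they held 40 distinct sequences of the 1660 in the whole table. Each sequence was counted once. Of the 40 members, 30 carried a miR159 name and 10 a miR319 name, and 2 were listed under a pair of names.

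In plants, a microRNA guides an Argonaute protein to messenger RNAs with a nearly complementary site, which are then cleaved or translated less. miR159 is known for its action on the GAMYB transcription factors, MYB proteins of the gibberellin response that act in anther development, and in Arabidopsis it keeps GAMYB-like genes silent in vegetative tissue. miR319 acts on a group of TCP transcription factors that promote the end of cell division and the start of differentiation in leaves, and its control of a TCP gene is needed for normal petal growth in Arabidopsis. The mature sequences of both families resemble each other over much of their length, although their main targets differ.

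Names in the table start with the species whose miRBase entry was matched (mdm for apple, csi for sweet orange, and so on), then give changes of the ends: L for the 5′ end, R for the 3′ end, and a plus or minus sign with the number of bases gained or lost. A part such as 1ss21TC gives the number of substitutions and, for each, its position, the base of the entry and the base sequenced. By sequence, members holding the letters GATTGAAG were taken as the miR159 core (19 members, all with miR159 names), those holding GACTGAAG as the miR319 core (5 members, all with miR319 names), and the other 16 as other regions (11 with miR159 names and 5 with miR319 names). The last group holds 5p sequences of the other precursor arm, other parts of precursors and a few scarce variants.

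The sequences below are the members that changed between stages and the abundant forms with which they are compared, as DNA letters from the table. Capitals mark bases 2 to 8, the seed. In the miR159 core, the full-length form, its 3′ trimmed forms, its 3′ and 5′ extended forms and a form with other end bases were:
mdm-miR159d: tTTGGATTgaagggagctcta
mdm-miR159d_R-1: tTTGGATTgaagggagctct
mdm-miR159d_R-1_1ss20TA: tTTGGATTgaagggagctca
mdm-miR159d_R-3: tTTGGATTgaagggagct
rco-miR159_R+3: tTTGGATTgaagggagctctattt
mtr-MIR159a-p5: cTTTGGATtgaagggagctcta
bdi-MIR159a-p5_1ss1CA: aTTGGATTgaagggagctctc
In the miR319 core, the most abundant form, both shortened forms and the substituted form were:
mdm-miR319a_1ss21TC: tTGGACTGaagggagctcccc
mdm-miR319a_R-1: tTGGACTGaagggagctccc
mdm-miR319a_R-1_1ss20CT: tTGGACTGaagggagctcct
mdm-miR319a_2ss14AT20CT: tTGGACTGaagggtgctcctt
Among the other regions, the 5p sequences of miR159 and a variant that lacks the letters of either core were:
csi-miR159a-5p_1ss19AT: gAGCTCCTtgaagtccaatag
csi-miR159a-5p_R-2_1ss19AT: gAGCTCCTtgaagtccaat
ath-miR159b-5p_R-2_1ss10GT: gAGCTCCTttaagttcaat
mdm-MIR159e-p5_2ss9AG17TC: tTGGATTGgagggagcccta
The seed TTGGATT was shared by 14 members, all of the miR159 core, and TGGACTG by the 5 members of the miR319 core. The 5′ extended form mtr-MIR159a-p5 is the full-length form with 1 more base in front, so its seed is shifted to TTTGGAT, whereas the 3′ trimmed and extended forms keep the seed of the full-length one. The seed AGCTCCT was shared by the 3 listed 5p sequences of miR159, and 17 further seeds, that of mtr-MIR159a-p5 among them, had 1 or 2 members each. mdm-miR159d and mdm-miR319a_1ss21TC share a run of 12 bases.

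The deposited values are normalized reads, which behaved as reads multiplied by 1 factor per library. On that reading, 1 sequenced read was worth 0.713 to 1.27 of them. Recovered reads, summed over distinct sequences, were 751966 to 1239681 per library, of which 196126 to 374189 belonged to the members. The members made up 22.6% to 30.2% of the listed normalized reads of a library. The value of 1 read was higher at the later stages (PF_L 0.713 to 0.882, PF_Z 1.05 to 1.09, PF_D 1.07 to 1.27), so differences between stages depend in part on the scaling, and shares within a library do not.

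The members were very unequal in level. mdm-miR159d alone took 89.0% of all member reads and 94.2% of those of the miR159 core. The 7 members with a mean of at least 1000 normalized reads took 98.9%, 16 had a mean of at least 50, and the 20 with a mean under 5 took 0.0115% in all. Among the 40 members, 11 never exceeded 3 reads in a library after rounding to whole reads.

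mdm-miR159d, the full-length miR159, had 186968, 237316 and 244384 normalized reads in PF_L, 272576, 200244 and 183156 in PF_Z, and 266029, 259987 and 305678 in PF_D. All 3 PF_D libraries lay above the PF_L libraries, while those of PF_Z spanned both. The log2 difference of (value + 1) between PF_D and PF_L was 0.32 ± 0.25 (SE), with an adjusted p of 0.391 (limma over all tested sequences, Benjamini-Hochberg), so it was not called at the threshold of 0.05. The total of all miR159 names behaved likewise, at 299172 ± 26538 in PF_D against 241511 ± 32898 in PF_L (SD, n = 3 each), with a log2 difference of 0.31 ± 0.20 (SE) and an adjusted p of 0.27 in the limma fit over 139 family totals.

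mdm-miR319a_1ss21TC, the most abundant miR319, had 5099, 7748 and 7511 normalized reads in PF_L, 12922, 7995 and 6124 in PF_Z, and 12278, 8003 and 9655 in PF_D. The PF_D libraries again lay above those of PF_L, and the PF_Z libraries reached from within the PF_L range to above all PF_D libraries. Its log2 difference between PF_D and PF_L was 0.56 ± 0.28 (SE, limma adjusted p = 0.186). The total of miR319 names was 13029.9 ± 2796 in PF_D against 9017 ± 1961 in PF_L (SD, n = 3 each), with a log2 difference of 0.53 ± 0.29 (SE, limma adjusted p = 0.189). Neither total was called in any of the 3 comparisons, where 30.2% of the family totals were called between PF_D and PF_L, 7.19% between PF_D and PF_Z and 10.1% between PF_Z and PF_L. With each library scaled to its valid reads instead, both totals were called between PF_D and PF_L, at log2 differences of 0.91 for miR159 and 1.13 for miR319 (limma adjusted p = 0.0371 and 0.0401). With equal library totals the differences were -0.10 for miR159 and 0.12 for miR319, so the sign of the miR159 difference rests on the scaling. Without PF_L replicate 1 the differences on the deposited scale were 0.20 for miR159 and 0.34 for miR319.

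**Figure D1:**
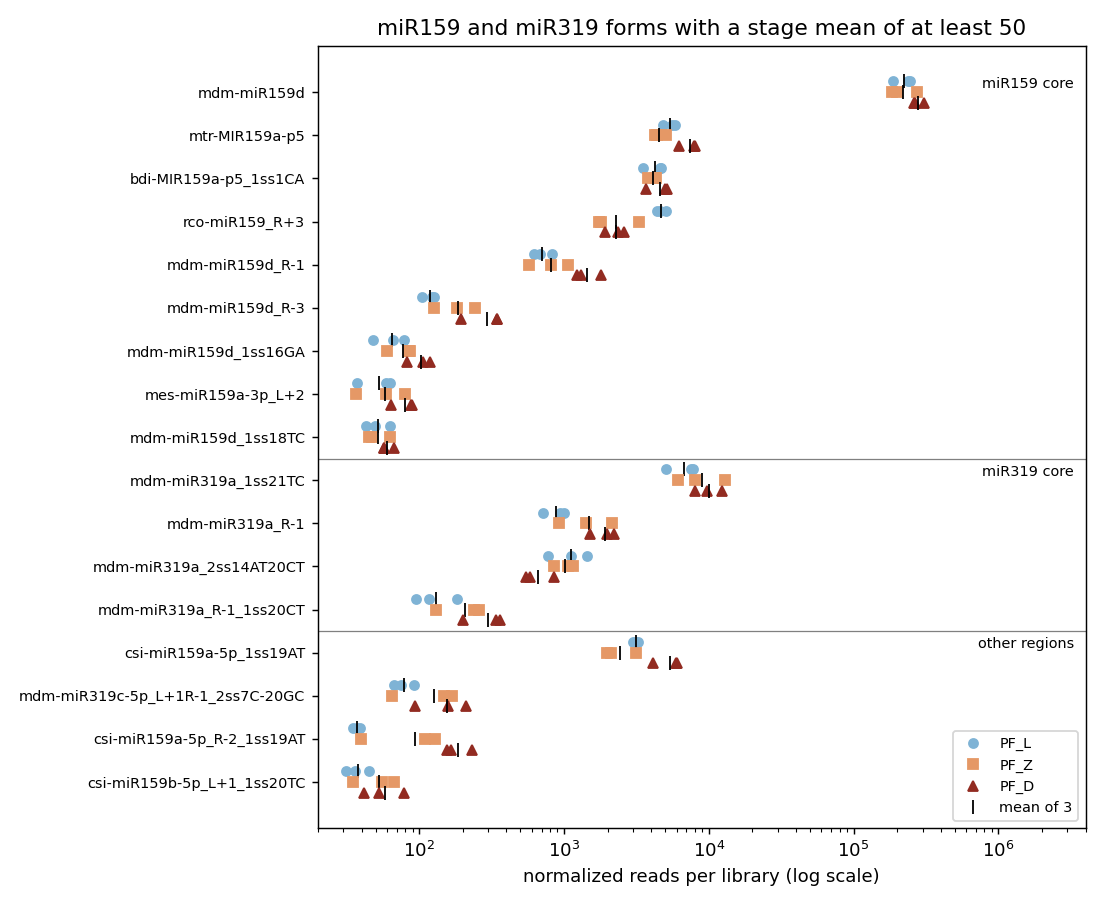
Normalized reads (x axis, log scale) of the 17 members with a stage mean of at least 50, one row each, grouped into the miR159 core, the miR319 core and other regions; points are the 3 libraries of PF_L, PF_Z and PF_D and the black tick is their mean. mdm-miR159d lies between 183156 and 305678 in every library. Of the plotted members of the miR159 core, rco-miR159_R+3 is the one whose PF_L libraries (4366 to 5074) all lie above those of PF_D (1928 to 2584).

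The test took in 39 of the 40 members, those detected in 3 libraries or more. Between PF_D and PF_L, 10 of the 39 tested members were called, 9 higher and 1 lower in PF_D. The background was 15.8% of the 1511 tested sequences, with 7.48% higher and 8.27% lower. Libraries of PF_D and PF_L did not overlap for 20 of the 39 members, the 10 called ones among them, nor for 35.9% of all tested sequences and 236 of the 238 called ones. The median log2 difference was 0.46 over the 39 members and -0.30 over all tested sequences, and 0.59 over the 20 members with a mean of at least 5, against -0.16 over the 501 sequences with such a mean. The last value became -0.53 with equal library totals, which called 72 sequences higher and 185 lower, and 0.42 with reads scaled to valid reads, which called 211 higher and 61 lower, against 113 higher and 125 lower on the deposited scale. The members called then numbered 4 with equal library totals and 15 with valid reads, and 4, 5 and 3 on the deposited scale when PF_L replicate 1, PF_L replicate 3 and PF_D replicate 3 were left out. Between PF_D and PF_Z, 1 member was called against a background of 3.11% (35 sequences higher and 12 lower, or 24 and 30 with equal library totals). Between PF_Z and PF_L it was 1 against 1.13% (8 higher and 9 lower, or 14 and 8 with valid reads).

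**Figure D2:**
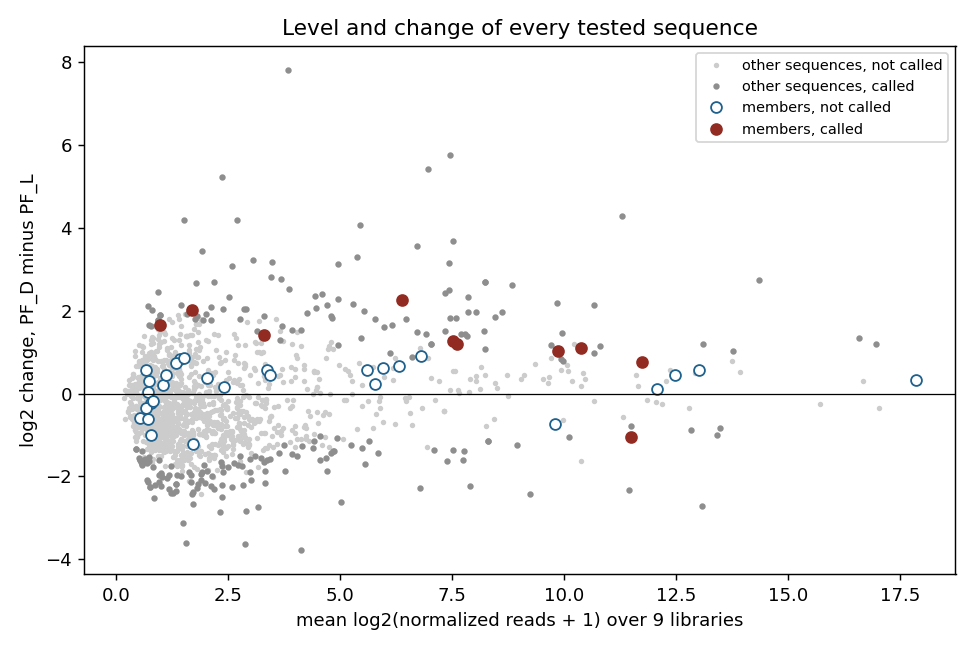
Log2 difference between PF_D and PF_L (y axis) against the mean log2(normalized reads + 1) over the 9 libraries (x axis) for each of the 1511 tested sequences; grey points are other sequences and circles are the 39 tested members, filled where called. The called members reach from scarce sequences up to csi-miR159a-5p_1ss19AT, and 9 of the 10 lie above 0. More abundant members, mdm-miR159d among them, were not called.

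Shortened forms made up most of the called members, where names that carry both a gain and a loss of bases were counted as shortened. Of the 12 tested members whose name carries a loss of bases, 7 were higher in PF_D than in PF_L and none was lower, with a median log2 difference of 1.06. Of the 23 without such marks, 2 were higher (median 0.44), and of the 4 lengthened ones 1 was lower (median 0.12). Among the other known miRNAs of the table, 17 of 73 tested shortened names were higher and 5 lower (median 0.69), and 66 of 412 unmarked names were higher and 32 lower (median 0.25). Of their 83 lengthened names, 6 were higher and 11 lower (median 0.13). Whether the members differ from these was not tested.

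mdm-miR159d_R-1, the full-length miR159 without its last base, had 620.1, 821 and 687 normalized reads in PF_L, 1059, 809 and 569 in PF_Z, and 1226, 1313 and 1810.3 in PF_D. All PF_D libraries exceeded those of both other stages, and PF_L and PF_Z overlapped. It was higher in PF_D than in PF_L by a log2 of 1.02 ± 0.26 (SE), with an adjusted p of 0.0129 in limma. The call was lost with equal library totals and without PF_L replicate 1 or PF_D replicate 3, with adjusted p over the alternatives of 0.00209 to 0.0814. Its log2 ratio to the full-length form, which does not depend on scaling, was -7.76, -7.63 and -7.40 in PF_D against -8.24, -8.17 and -8.47 in PF_L. The paper reports the opposite direction by qRT-PCR for the form it names FamiR159d-R-1, a significant decrease as flowers developed. The reason for this difference was not tested.

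mdm-miR159d_R-3, which lacks 3 bases and has the full-length seed, had 105, 123 and 127 normalized reads in PF_L, 243, 181 and 128 in PF_Z, and 343, 195 and 343 in PF_D. The lowest PF_D library lay above the highest PF_L library. It was higher in PF_D than in PF_L by a log2 of 1.26 ± 0.30 (SE) (limma adjusted p = 0.00807) and stayed called in all 21 alternatives. The scarce mdm-miR159d_R-1_1ss20TA, a trimmed form with another last base, had 12.1, 13.0 and 24.0 normalized reads in PF_D against 4.85, 8.56 and 3.30 in PF_L. Rounded to whole reads these were 9, 11 and 22 against 5, 12 and 4, some of them from 0.5-read steps. Its log2 difference was 1.42 ± 0.46 (SE, limma adjusted p = 0.0442), and the call was lost in 9 of 21 alternatives, among them edgeR, DESeq2 and leaving out PF_L replicate 1, PF_L replicate 3 or any PF_D library (adjusted p 0.0104 to 0.175).

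mdm-miR319a_R-1, the most abundant shortened miR319, had 720.2, 1005 and 933 normalized reads in PF_L, 2157, 1424 and 919 in PF_Z, and 2213, 1514 and 1991 in PF_D. PF_D and PF_L did not overlap, and PF_Z replicate 3 lay among the PF_L libraries. It was higher in PF_D than in PF_L by a log2 of 1.10 ± 0.28 (SE) (limma adjusted p = 0.0143). The call was lost with equal library totals and without PF_L replicate 1, PF_D replicate 1 or PF_D replicate 3 (adjusted p 0.00174 to 0.0777). Its log2 ratio to mdm-miR319a_1ss21TC was -2.47, -2.40 and -2.28 in PF_D against -2.82, -2.95 and -3.01 in PF_L.

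mdm-miR319a_R-1_1ss20CT, of the same length with another last base, had 94.4, 183 and 116 normalized reads in PF_L, 258, 237 and 131 in PF_Z, and 361, 201 and 341 in PF_D. The gap between PF_D and PF_L was small, 201 against 183 for the nearest libraries. It was higher in PF_D than in PF_L by a log2 of 1.20 ± 0.33 (SE, limma adjusted p = 0.0207), and the call was lost with equal library totals and without PF_L replicate 1, PF_L replicate 3, PF_D replicate 1 or PF_D replicate 3 (adjusted p 0.00417 to 0.105).

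The miR319 core also held a member with values of the opposite sign. mdm-miR319a_2ss14AT20CT, which differs from the abundant form at 3 positions in its 3′ part, had 774, 1445 and 1126 normalized reads in PF_L, 1066, 1147 and 849 in PF_Z, and 854, 548 and 582 in PF_D. PF_D replicate 1 lay above PF_L replicate 1, so the stages overlapped. The log2 difference between PF_D and PF_L was -0.74 ± 0.26 (SE, limma adjusted p = 0.0683), which was not called. Within the miR319 core its share was 11.6%, 13.9% and 11.6% in PF_L, 6.50%, 10.6% and 10.6% in PF_Z, and 5.43%, 5.33% and 4.63% in PF_D, with no overlap between stages and no test made. The other 4 members of the core had positive log2 differences between PF_D and PF_L.

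**Figure D3:**
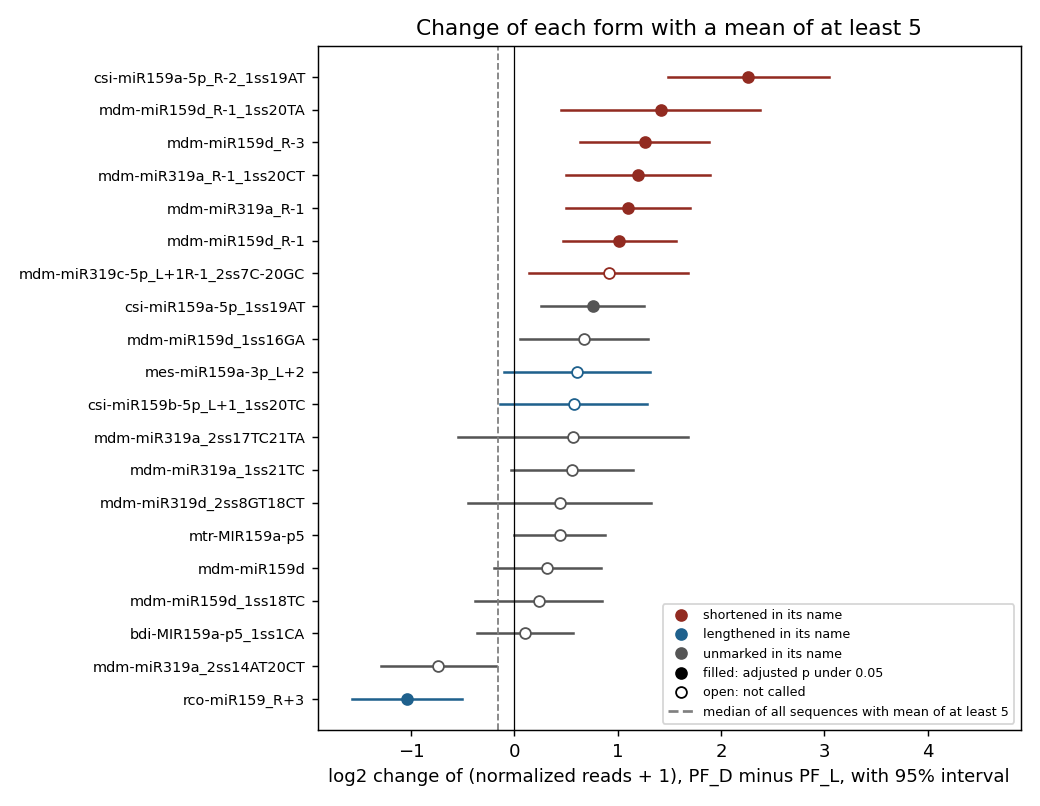
Log2 difference of (normalized reads + 1) between PF_D and PF_L (x axis) with its 95% interval for the 20 members with a mean of at least 5, sorted by size; color gives the end marks of the name, filled points were called, and the dashed line is the median of all sequences with such a mean (-0.16). The 6 uppermost members are shortened forms, and rco-miR159_R+3 is the called member on the negative side.

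rco-miR159_R+3, the full-length miR159 with 3 more bases at its 3′ end and 24 nucleotides long, was the called member that was lower later in development. It had 4366, 4606 and 5074 normalized reads in PF_L, 1749.6, 1816 and 3318 in PF_Z, and 1928, 2584 and 2343 in PF_D. The PF_L libraries lay above all libraries of the later stages, and PF_Z replicate 3 lay between. The log2 difference was -1.04 ± 0.25 (SE, limma adjusted p = 0.00997) between PF_D and PF_L, lost with reads scaled to valid reads (adjusted p over the alternatives 0.000911 to 0.300). Between PF_Z and PF_L it was -1.09 ± 0.25 (SE, limma adjusted p = 0.041). That call was lost in 10 of 21 alternatives, among them equal library totals and leaving out any PF_L library, PF_Z replicate 1, PF_Z replicate 2, PF_D replicate 2 or PF_D replicate 3 (adjusted p 0.00209 to 0.239).

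The 5′ extended forms did not follow it. mtr-MIR159a-p5 had 4855, 5596 and 5861 normalized reads in PF_L, 5033, 4238 and 4417 in PF_Z, and 6239.5, 7995 and 7947 in PF_D, with the PF_D libraries above all others. Its log2 difference was 0.44 ± 0.21 (SE, limma adjusted p = 0.164) between PF_D and PF_L and 0.69 ± 0.21 (SE, limma adjusted p = 0.0835) between PF_D and PF_Z. mes-miR159a-3p_L+2, with 2 more bases at the 5′ end, was far scarcer, at 80.1 ± 14.2 in PF_D against 53.0 ± 13.5 in PF_L (SD, n = 3 each, limma adjusted p = 0.227).

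The remaining core members with a mean of at least 50 were not called. bdi-MIR159a-p5_1ss1CA, which differs from the full-length miR159 in its first and last base and is also listed as mdm-miR159d_2ss1TA21AC, had 4604 ± 801 in PF_D against 4269.6 ± 671 in PF_L (SD, n = 3 each), a log2 difference of 0.11 ± 0.22 (SE, limma adjusted p = 0.78). The forms mdm-miR159d_1ss16GA and mdm-miR159d_1ss18TC, with a single substitution each, had 102 ± 18.8 and 60.3 ± 5.46 in PF_D against 64.4 ± 15.5 and 51.6 ± 10.2 in PF_L (SD, n = 3 each), with limma adjusted p of 0.131 and 0.615. Levels of forms 1 base away from so dominant a sequence are uncertain, since sequencing errors on it were not separated from them.

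The end forms were also compared as shares within each library, with an exact permutation test of the stages over all 1680 assignments of the 9 libraries and p-values adjusted over 5 ratios and shares (two-sided, since any order of stages counts). Shortened forms took 12.2%, 11.4% and 10.8% of the miR319 core in PF_L, 14.7%, 15.4% and 13.1% in PF_Z, and 16.4%, 16.7% and 18.5% in PF_D. The 3 stages did not overlap, and the exact p was 0.00357, the smallest that these libraries can give (adjusted p = 0.0179). Leaving out PF_L replicate 3 took the adjusted p over the threshold, to 0.0536.

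In the miR159 core, shortened forms were far scarcer in share. They took 0.367%, 0.379% and 0.316% in PF_L, 0.463%, 0.477% and 0.364% in PF_Z, and 0.568%, 0.554% and 0.675% in PF_D (exact p = 0.0107, adjusted p = 0.0268). PF_D lay above both other stages, and PF_Z replicate 3 lay among the PF_L libraries. Without PF_L replicate 3 the exact test gave an adjusted p of 0.0536.

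Among all other known miRNAs as 1 pool, shortened names took 8.61% to 11.8% of the reads of a PF_L library, 12.3% to 16.5% for PF_Z and 18.3% to 19.7% for PF_D. This share moved in the same direction as the shares of the members, and its part in them was not tested. RNA integrity values were not analysed here.

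Forms with a lengthened name took 2.20%, 1.84% and 1.97% of the miR159 core in PF_L, 0.626%, 0.886% and 1.74% in PF_Z, and 0.718%, 0.959% and 0.752% in PF_D (exact p = 0.0286, adjusted p = 0.0446). Nearly all of it was rco-miR159_R+3, at 0.782% ± 0.135 in PF_D against 1.98% ± 0.182 in PF_L (SD, n = 3 each). When forms were set by sequence, which adds mtr-MIR159a-p5 to the lengthened ones, the mean share was 4.29% for PF_L, 3.09% for PF_Z and 3.33% for PF_D, and the call was lost (adjusted p = 0.118, exact test). It was also lost without any 1 of the PF_L or PF_D libraries and without PF_Z replicate 2 (adjusted p 0.0655 to 0.0893). Lengthened names took 1.46% to 1.68% of other known miRNA reads in PF_D against 1.74% to 1.93% in PF_L.

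**Figure D4:**
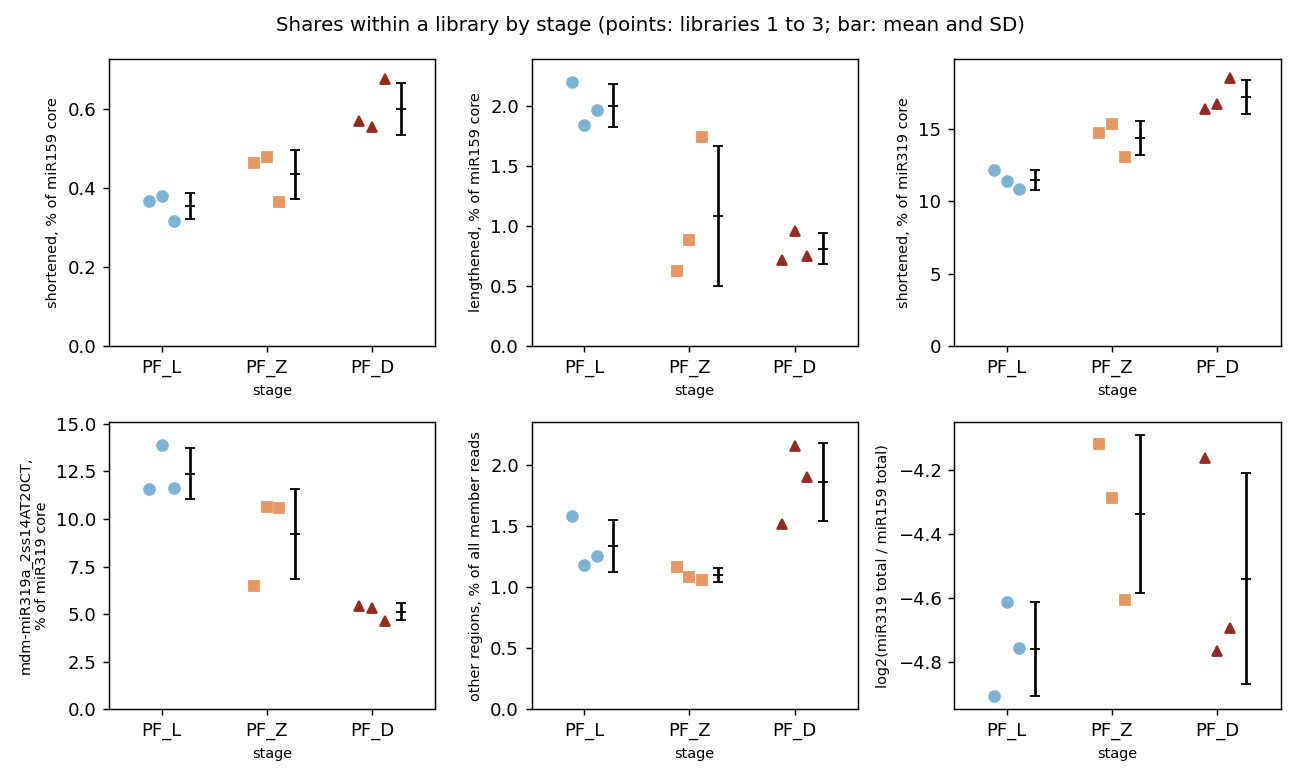
Shares within a library by stage, with libraries 1 to 3 as points and the mean with SD as a bar: shortened and lengthened forms in the miR159 core, shortened forms and mdm-miR319a_2ss14AT20CT in the miR319 core, other regions among all member reads, and the log2 ratio of the miR319 total to the miR159 total. Shortened forms of miR319 separate the 3 stages (PF_L 10.8% to 12.2%, PF_Z 13.1% to 15.4%, PF_D 16.4% to 18.5%), whereas the ratio of the totals overlaps.

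Sequences of the other precursor arm of miR159 were also called. csi-miR159a-5p_1ss19AT, the abundant 5p sequence, had 3152, 2989.9 and 3263 normalized reads in PF_L, 3163, 2116 and 1997 in PF_Z, and 4104, 5977 and 6066 in PF_D. The PF_D libraries exceeded all others, and PF_Z replicate 1 lay among those of PF_L. It was higher in PF_D than in PF_Z by a log2 of 1.16 ± 0.24 (SE, limma adjusted p = 0.00694), a call lost without PF_D replicate 2 or PF_D replicate 3 (adjusted p 0.000174 to 0.0705). Against PF_L the log2 difference was 0.76 ± 0.24 (SE, limma adjusted p = 0.0381), lost with equal library totals and without any PF_L library, PF_D replicate 2 or PF_D replicate 3 (adjusted p 0.0041 to 0.240). Its log2 ratio to the full-length mdm-miR159d was -5.89, -6.31 and -6.23 in PF_L, -6.43, -6.56 and -6.52 in PF_Z, and -6.02, -5.44 and -5.66 in PF_D. In this ratio PF_D replicate 1 lay below PF_L replicate 1, and no test was made of it.

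Its trimmed form had the largest fitted change of the members with a mean of at least 5. csi-miR159a-5p_R-2_1ss19AT, which lacks the last 2 bases, had 37.0, 35.0 and 38.8 normalized reads in PF_L, 129, 110.0 and 39.9 in PF_Z, and 155, 165 and 232 in PF_D. The PF_L libraries lay within 4 of each other, PF_Z replicate 3 lay beside them, and PF_D lay above all others. It was higher in PF_D than in PF_L by a log2 of 2.27 ± 0.37 (SE, limma adjusted p = 0.000515) and stayed called in all 21 alternatives (adjusted p up to 0.00854). Relative to csi-miR159a-5p_1ss19AT its log2 ratio was -6.41, -6.42 and -6.40 in PF_L, -4.61, -4.27 and -5.65 in PF_Z, and -4.72, -5.18 and -4.71 in PF_D, so it was higher in every library of the later stages than in PF_L.

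Another 2 members of the other regions, both scarce, were called between PF_D and PF_L, and neither is given a fold. ath-miR159b-5p_R-2_1ss10GT, a further trimmed 5p sequence, rested on 6, 2 and 6 reads in PF_D against 1, 1 and 0 in PF_L (limma adjusted p = 0.0276), and the call was lost in 6 of 20 alternatives, with DESeq2 and without PF_L replicate 1, PF_L replicate 3, PF_D replicate 1 or PF_D replicate 3 among them. mdm-MIR159e-p5_2ss9AG17TC rested on 1, 3 and 2 reads in PF_D and on none in the 3 PF_L libraries, where a count of 0 allows up to 3 reads in each (limma adjusted p = 0.0361). This call was lost in 8 of 19 alternatives, edgeR and any PF_L library left out among them, and DESeq2 gave it no adjusted p. Limits and read numbers cover counting error only.

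The 5p sequence of miR319 did not pass the test. mdm-miR319c-5p_L+1R-1_2ss7C-20GC, which shares 10 bases with the reverse complement of mdm-miR319a_1ss21TC, had 211, 93.7 and 159.3 normalized reads in PF_D against 92.6, 74.5 and 66.8 in PF_L. The log2 difference was 0.92 ± 0.36 (SE, limma adjusted p = 0.0977). The other region csi-miR159b-5p_L+1_1ss20TC had 57.9 ± 19.2 in PF_D against 37.6 ± 7.10 in PF_L (SD, n = 3 each, limma adjusted p = 0.262).

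Other regions as a whole took 1.58%, 1.18% and 1.25% of the member reads in PF_L, 1.16%, 1.08% and 1.06% in PF_Z, and 1.52%, 2.16% and 1.91% in PF_D. PF_D replicate 1 lay below PF_L replicate 1, and PF_Z was lowest. The exact permutation test gave p = 0.0357 (adjusted p = 0.0446), and 8 of the 9 libraries took the adjusted p over the threshold when left out alone, PF_D replicate 1 being the exception (adjusted p 0.0536 to 0.0982 for the 8). The 3 5p sequences of miR159 with the seed AGCTCCT made up 91.6% to 97.3% of these reads, csi-miR159b-5p_L+1_1ss20TC not included.

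The balance between the families did not pass the test. The log2 ratio of the miR319 total to the miR159 total was -4.91, -4.61 and -4.76 in PF_L, -4.12, -4.29 and -4.61 in PF_Z, and -4.16, -4.76 and -4.69 in PF_D (exact p = 0.196, adjusted p = 0.196). PF_D replicate 1 stood near the PF_Z libraries and the other PF_D libraries among those of PF_L. The difference between PF_D and PF_L was 0.22 on the log2 scale, 0.030 without PF_D replicate 1, 0.14 without PF_L replicate 1 and 0.33 without PF_D replicate 2.

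A further 5 families were chosen for known ties to MYB or TCP regulation or, for miR167, to flower maturation. In Arabidopsis, TCP factors raise the transcription of miR396, which acts on growth-regulating factors, and of miR164, which acts on NAC genes of organ boundaries. miR167 acts on auxin response factors of flower maturation, and miR828 and miR858 act on R2R3-MYB genes. Of these 5 totals, 1 was called higher and 1 lower between PF_D and PF_L in the limma fit over families, 1 higher between PF_Z and PF_L, and none between PF_D and PF_Z. The background over all 139 family totals was 30.2% between PF_D and PF_L, 10.1% between PF_Z and PF_L and 7.19% between PF_D and PF_Z.

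The miR396 total was 86179.6, 76200.8 and 81637.6 normalized reads in PF_D against 36685, 37314.5 and 32487 in PF_L, a log2 difference of 1.20 ± 0.21 (SE, limma adjusted p = 0.0011), and between PF_Z and PF_L it was 0.78 ± 0.21 (SE, limma adjusted p = 0.0356). The miR164 total was 10843, 6975 and 7519 in PF_D against 17917, 13006 and 13608 in PF_L, a log2 difference of -0.83 ± 0.23 (SE, limma adjusted p = 0.0193). Libraries of PF_D and PF_L did not overlap for either family, nor for 42.4% of all tested family totals. The miR396 call between PF_D and PF_L stayed in all 22 alternatives, and that between PF_Z and PF_L was lost in 10, among them edgeR and leaving out any PF_L or PF_D library or PF_Z replicate 2 (adjusted p 0.0105 to 0.212). The miR164 call was lost with reads scaled to valid reads and without PF_L replicate 1, PF_D replicate 2 or PF_D replicate 3 (adjusted p 0.000902 to 0.583). By qRT-PCR the paper reports significant decreases of single forms as flowers developed, FamiR396e and FamiR164b among them. For miR396 this is opposite to the total given here, and for miR164 it has the same direction. A single form is not a family total, and the reason for the difference was not tested. Between PF_D and PF_L the log2 differences of miR167, miR828 and miR858 were 0.21, 0.54 and 0.20, with limma adjusted p of 0.632, 0.302 and 0.632. Between PF_Z and PF_L the differences of these families were 0.11, 1.11 and 0.73 (limma adjusted p = 0.847, 0.0864 and 0.148). Between PF_D and PF_Z they were 0.093, -0.57 and -0.53 (limma adjusted p = 0.895, 0.421 and 0.370).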

How the data were processed

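Small RNA from petals at 3 stages (PF_L, PF_Z and PF_D, 3 libraries each) was sequenced by the authors on an Illumina HiSeq. The ACGT101-miR pipeline took out adapter, junk, repeat and common RNA family reads. The authors matched what remained to miRBase precursors and the Fragaria vesca genome, and deposited 1 normalized signal per name and library, whose formula is not given in the sources used here. RNA was extracted with Trizol per the labels and with CTAB per the study's methods. A library's most common value above 0 was taken as 1 read: 68.7% to 72.0% of its values were whole reads within 0.01 and 97.9% to 99.0% whole or 0.5-read steps.

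Repeated lines were dropped (173 of 1876), and each sequence was counted once. The main test was limma (version 3.58.1, trended prior, R 4.3.3) on log2(value + 1), over all 9 libraries and the 1511 sequences above 0 in at least 3 libraries. Two-sided p-values were adjusted by Benjamini-Hochberg and called under 0.05. Known names were summed by family number, and 139 of 162 families were tested. Within-library shares used the exact permutation test. Scripts were tested on simulated data. Alternatives covered the pseudocount, filter, scaling, edgeR 4.0.16 (quasi-likelihood) and DESeq2 1.42.0 on recovered reads, stages in the fit, replicate number, definition of forms and each library left out. Setting forms by sequence was chosen after seeing the data. The rest ran in Python 3.11.15 (pandas 2.3.3, numpy 2.4.6, matplotlib 3.10.9). The members, lists and tests were chosen with earlier results of these data known. Named members are all 10 called ones and all 17 with a stage mean of at least 50. Genome positions were not analysed here.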

Additional observations from a re-analysis of the deposited data

How the results depend on the processing

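The number of members called between PF_D and PF_L (10) was 4 with equal library totals, 15 with reads scaled to valid reads, 7 with DESeq2 and 3 to 11 with 1 library left out. Between PF_Z and PF_L it was 0 (1 on the deposited scale) with equal library totals, reads scaled to valid reads and the compared stages alone, 2 with edgeR and with DESeq2, and 0 to 2 with 1 library left out. Between PF_D and PF_Z (1) it was 2 with equal library totals, 3 with a mean of at least 5, with valid reads and with DESeq2, and 0 to 4 with 1 library left out. Over all sequences the edgeR and DESeq2 calls numbered 236 and 143 between PF_D and PF_L and 35 each between PF_Z and PF_L, against 238 and 17 with limma, and the filter on a mean of at least 5 gave 81 against 47 between PF_D and PF_Z. The miR159 and miR319 totals were called between PF_D and PF_L with valid reads (0.91 and 1.13), and the miR159 total ranged over 0.26 to 0.54 between PF_D and PF_Z with 1 library left out, called without PF_Z replicate 1. With 1 library left out, the ratio of the totals ranged over 0.030 to 0.33 and was not called. When names with substitutions were left out, a ratio was called (0.79, against 0.22), but it was no longer one of totals. That setting leaves 1 form of miR319, the shortened mdm-miR319a_R-1 with 12.8% of the core, and drops mdm-miR319a_1ss21TC with 76.9%. The value therefore describes a shortened form and not the balance between the families. No other region was left either, so the setting gave no share of these. The share differences between PF_D and PF_L ranged, with 1 library left out, over 0.207 to 0.267 (shortened miR159), -1.27 to -1.10 (lengthened miR159), 5.06 to 6.14 (shortened miR319) and 0.374 to 0.693 (other regions) percentage points, and lengthened miR159 set by sequence gave -0.96. The linked families called between PF_Z and PF_L (1) were 0 with the median of ratios, edgeR and the compared stages alone, 2 with DESeq2, and 0 to 2 with 1 library left out, those between PF_D and PF_L 1 to 2, and between PF_D and PF_Z 1 with equal library totals and 0 to 1 with 1 library left out. Of the 12 calls of single members, 2 were kept in every alternative, and in all 249 refits the sign stayed the same. Stages share replicate numbers, but deviations of libraries with the same number correlated at only -0.021 to 0.12, and not every library correlated best with its own number. With the replicate block, 9 members were called between PF_D and PF_L, the loss being mdm-miR159d_R-1_1ss20TA. The causes of these differences were not tested. Members with a few reads are limited by depth.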

Other observations

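Outside the members, 1 sequence of the table held the letters of a core. ppe-MIR5225-p3_1ss8CT, which contains GACTGAAG with other bases around it, had 17.8, 7.90 and 2.13 normalized reads in PF_D against 14.1, 12.1 and 2.47 in PF_L, and it was not counted with miR319.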
